A study of Mus musculus with 7 samples.

Results

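The type I interferon response genes are a list of 45 mouse genes that cells switch on after interferon alpha or beta binds its receptor. Their members were the rows of the deposited count table whose gene symbol was on the list, which gave 40 of the 23420 rows. Another 5 listed genes, Ifi207, Ifi209, Ifi211, Ifi213 and Ifit3b, stood in the table under a synonym (AI607873, Pyhin1, Mnda, Pydc4 and I830012O16Rik). They were kept out of all counts of members and are given separately, but the promoter search below covers all 45 listed genes. The sequenced RNA was from cortical microglia, which are macrophages that live in the brain, sorted as CD11b+, CD45low and CX3CR1+ cells at P30 (postnatal day 30). The cKO group (n = 4) carried both floxed Srgap2 alleles (Srgap2f/f) and Tmem119creErt2, a recombinase that is expressed from the microglial gene Tmem119 and becomes active with tamoxifen. The WT group (n = 3) was of Srgap2f/f littermates without the recombinase, so the floxed alleles and the tamoxifen (75 ug/g by gavage at P8 and again at P10) were shared by both groups. Since only cKO mice had the recombinase, effects of its presence and of the Srgap2 deletion cannot be told apart. Each library came from a separate numbered mouse.

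In the interferon pathway, sensors of foreign or misplaced nucleic acid lead to secretion of interferon alpha and beta. These bind the receptor chains IFNAR1 and IFNAR2, whose kinases JAK1 and TYK2 activate STAT proteins. These join IRF9 to form the complex ISGF3, which binds a short DNA element, the interferon-stimulated response element (ISRE), in the promoters of its targets. The targets encode antiviral proteins, more sensors and STAT proteins, and inhibitors such as USP18 that end the response. In the brain, microglia both make and respond to type I interferon, and a low tonic signal keeps many of these genes weakly expressed without infection.

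The promoter sequences show which listed genes hold letters that match this element. Of the 45 listed genes, 35 had an entry in the RefSeq promoter table (GRCm38.p6), with 42 promoters between them, and the 250 bases before each start were searched. The motif was GAAA, any 2 bases and GAAA again, or on the other strand TTTC, any 2 bases and TTTC, and overlapping matches were merged. It was held by 18 of the 35 genes (51.4%) and by 45.2% of their 42 promoters, against 2.98% of the 32851 promoters in the table. The 18 include Ifi207, Ifi211, Ifi213 and Ifit3b, which are synonym rows and no members. A gamma-interferon site, TTCNNNGAA, which reads the same on both strands, was held by 9.52% of these 42 promoters against 7.02% of all. The whole windows of 3 members are shown because they carry different matches and have high counts or a low p in the comparison. Ifit3 (chr19:34583279-34583528, plus strand) has separate matches, Bst2 (chr8:71537473-71537722, minus strand) has overlapping ones, and Lgals3bp (chr11:118401960-118402209, minus strand) has none. The windows are written 5′ to 3′ on the strand of the gene, ending at the base before the start, with the matches in capitals. Only exact matches were counted, so a window without one can still hold a near match, as that of Lgals3bp does close to its end.
Ifit3: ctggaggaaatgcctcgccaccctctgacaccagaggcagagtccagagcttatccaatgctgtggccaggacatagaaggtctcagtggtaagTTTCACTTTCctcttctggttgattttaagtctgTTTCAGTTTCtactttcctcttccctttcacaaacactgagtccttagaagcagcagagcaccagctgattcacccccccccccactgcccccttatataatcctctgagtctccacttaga
Bst2: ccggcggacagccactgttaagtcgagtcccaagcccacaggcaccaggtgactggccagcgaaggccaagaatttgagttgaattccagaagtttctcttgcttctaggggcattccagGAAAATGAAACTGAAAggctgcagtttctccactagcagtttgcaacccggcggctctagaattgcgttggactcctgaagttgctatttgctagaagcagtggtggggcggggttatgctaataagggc
Lgals3bp: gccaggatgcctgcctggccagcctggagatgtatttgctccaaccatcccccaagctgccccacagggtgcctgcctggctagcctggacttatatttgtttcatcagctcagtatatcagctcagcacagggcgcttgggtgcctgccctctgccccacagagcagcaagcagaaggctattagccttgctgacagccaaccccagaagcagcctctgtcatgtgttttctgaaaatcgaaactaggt

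Windows of 30 bases around the first match are shown for a selection of other listed genes, Ifit3b being a synonym row: Stat2 (chr10:128270266-128270295, plus strand), Isg15 (chr4:156200877-156200906, minus), Ifit1 (chr19:34640775-34640804, plus), Ifit3b (chr19:34607759-34607788, plus), Oas1a (chr5:120907526-120907555, minus), Rsad2 (chr12:26456553-26456582, minus) and Cxcl10 (chr5:92349083-92349112, minus).
Stat2: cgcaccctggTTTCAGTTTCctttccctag
Isg15: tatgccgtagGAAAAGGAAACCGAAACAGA
Ifit1: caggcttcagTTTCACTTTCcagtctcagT
Ifit3: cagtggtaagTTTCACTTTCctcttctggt
Ifit3b: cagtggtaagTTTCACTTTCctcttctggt
Oas1a: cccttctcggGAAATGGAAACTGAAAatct
Rsad2: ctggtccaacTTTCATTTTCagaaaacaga
Cxcl10: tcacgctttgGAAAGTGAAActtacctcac

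The windows of Ifit3 and its near copy Ifit3b are the same letters at different places on chromosome 19. Matches not shown include some in stretches rich in A or T, as in Slfn5 and Trim30d. A match is a description of the sequence and does not show binding. Among the tested members, the median log2 fold change of cKO against WT was −0.14 over the 13 with it, 8 of them below 0, and −0.09 over the 15 without it, 9 of them below 0. Dhx58, Zbp1, Ifi204, Usp18, Oas2, Mx1, Mx2, Parp14, Ifi27l2a and Rtp4 had no entry and are in neither median. They include Mx1 (log2 fold change −0.76), Usp18 (−0.72), Rtp4 (−0.59) and Mx2 (−0.54), which were among the lowest of all members. Ifi204 (0.06) and Oas2 (0.09), also without an entry, were above 0. Whether the motif goes with the change was not tested.

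As a check of the groups, Srgap2 was at 979, 691 and 693 CPM (a gene's share of the library's counts, scaled for library composition) in WT replicates 1 to 3 and at 344, 257, 275 and 212 CPM in cKO replicates 1 to 4 (log2 fold change −1.53, SE 0.17, adjusted p = 0.0053 by edgeR's quasi-likelihood test). Total counts were 27016173 to 35707304 per library. The libraries also differed by Xist, the RNA of the inactive X chromosome: it was at 69.4 to 243 CPM in WT replicates 2 and 3 and cKO replicates 2 and 4, and at 0 to 0.658 CPM in the other 3, which had the Y-linked Ddx3y at 27.2 to 30.4 CPM. The labels give no sex. A comparison within the libraries with and without Xist was added after the members' values were seen. Of the markers of other cell types, those of lymphocytes summed to 0.256 to 0.846 CPM, of monocytes and neutrophils to 5.96 to 11.1 CPM, of endothelial cells to 61.8 to 84.5 CPM and of oligodendrocytes to 63.3 to 107 CPM, against 55990 to 66690 CPM for 10 microglial markers. Of these 10, 1 passed the threshold: Tmem119, the gene from which the recombinase is expressed. It was at 6292, 6168 and 7212 CPM in WT and at 3005, 3360, 3799 and 4664 CPM in cKO, without overlap (log2 fold change −0.82, SE 0.15, adjusted p = 0.046 by edgeR). Cx3cr1, a marker of the sort, was also lower in cKO without overlap (log2 fold change −0.22, SE 0.11, adjusted p = 0.327 by edgeR). The other microglial markers overlapped between the groups. Bulk RNA cannot tell fewer expressing cells from less RNA per cell.

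Expression of the members in unchallenged microglia was low. Of the 40 members, 38 passed the filter on low counts, and their median level was 2.63 on the log2 CPM scale, against 4.65 over the 11991 genes tested. Relative to transcript length, WT levels ran from 110 CPM per kb for Lgals3bp, 89.3 for Bst2, 43.7 for Ccl12, 29.1 for Irf9 and 26.0 for Slfn2 down to 0.077 CPM per kb for Oas3. Oas1g, with 3, 6 and 11 counts in WT and 8, 2, 7 and 9 in cKO, was not tested. Neither was Ifi44, with no count in any WT library and 5, 0, 10 and 0 counts in cKO. A count of 0 allows up to 0.0837 to 0.11 CPM, depending on the library, for counting error only.

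No member passed the threshold between cKO and WT, an adjusted p under 0.05 by edgeR's quasi-likelihood test over all genes. This was 0 of 38 members, beside 0.359% of all genes tested (43 of 11991). The median log2 fold change of the members was −0.15, against −0.01 over all genes, with 25 members below 0 and 13 above. At an unadjusted p under 0.05 stood 9 members, all lower in cKO: Usp18, Lgals3bp, Mx1, Ifit3, Dhx58, Irf9, Mx2, Rtp4 and Slfn2. These were 23.7% of members. Of all genes, 16.5% stood at that p in either direction, and 6.87% were lower at it. In 5 members every cKO library was below every WT library, and in none was every cKO library above, where 7.2% and 8.86% of all genes did so. DESeq2 placed 2 of 32 members with an adjusted p past the threshold (4.92% of all genes), and limma-voom placed 0 of 38 (0.392%).

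**Figure D1:**
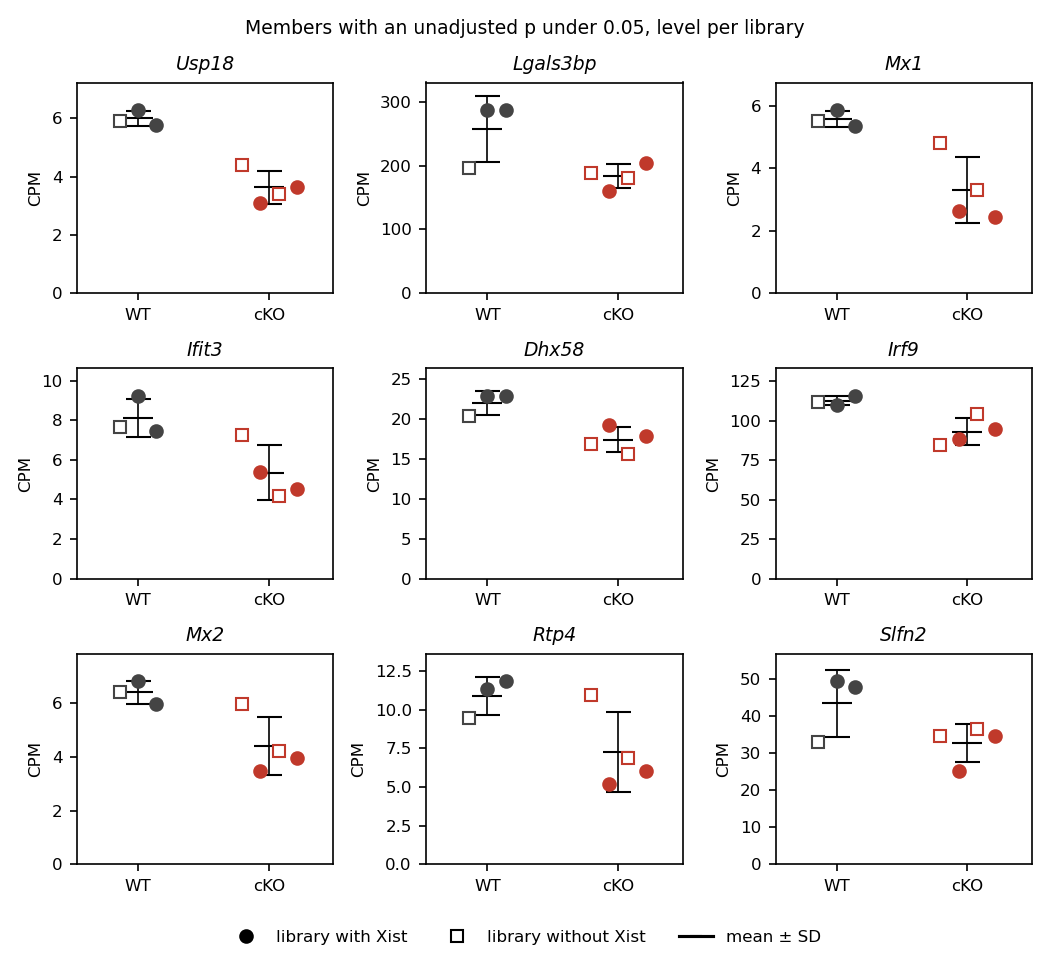
CPM (scaled for library composition) per library for the 9 members with an unadjusted p under 0.05, with 1 panel a gene and each vertical axis from 0. Points are libraries, filled circles with Xist and open squares without, and lines give the mean and SD of each group (WT n = 3, cKO n = 4). The cKO points lie below all WT points in Usp18, Mx1, Ifit3, Dhx58 and Irf9 and overlap them in the other panels.

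The cKO libraries did not move together. The median over members of the difference between a library's log2 CPM and the gene's mean over all 7 libraries was 0.13, 0.22 and 0.10 in WT replicates 1 to 3, and 0.21, −0.24, −0.04 and −0.26 in cKO replicates 1 to 4. So cKO replicate 1 lay at the WT level and cKO replicates 2, 3 and 4 lay below it, replicate 3 by the least. In cKO replicate 1, 29 of 38 members were above their mean, close to the 31 of 38 in WT replicate 2, and 12 had their highest level, the most of any library. In cKO replicate 2, 4 of 38 were above their mean, in cKO replicate 3 16 of 38, and in cKO replicate 4 10 of 38. Over all genes the share above the mean was 49.4% to 51.8% in each library. The spread of single members within groups was also wider than usual, with a median SD of 0.326 on the log2 CPM scale against 0.211 over all genes, at the members' lower counts.

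**Figure D2:**
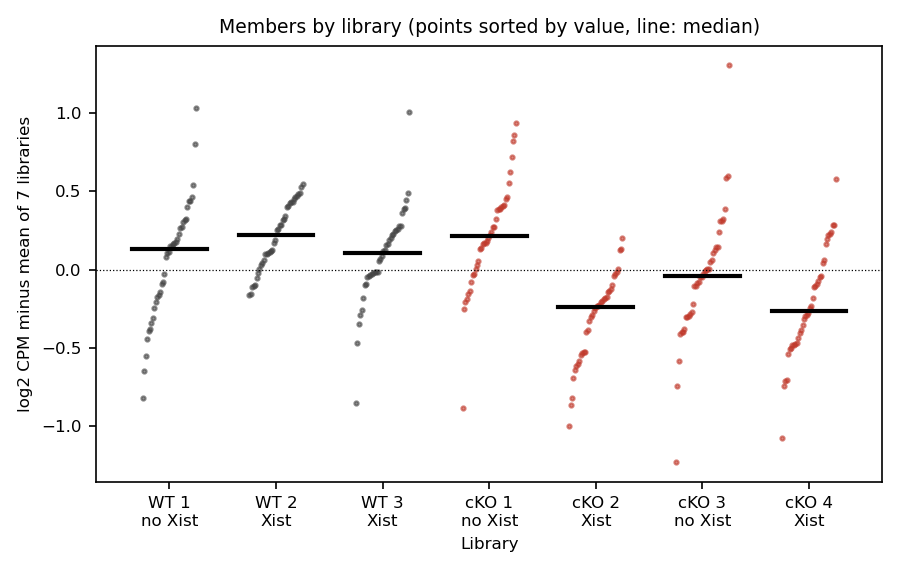
Difference of log2 CPM from each gene's mean over 7 libraries (vertical axis, log2) for the 38 tested members in each library (horizontal axis). Points are members sorted by value within a library, and the line is their median, which is 0.21 in cKO replicate 1 and −0.24 and −0.26 in cKO replicates 2 and 4.

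Sensors of nucleic acid held 3 members, with a median log2 fold change of −0.24 and none past the threshold. Dhx58 encodes LGP2, a helicase that regulates RNA sensing by its relatives RIG-I and MDA5. It was at 20.4, 22.9 and 23.0 CPM in WT and at 16.9, 19.3, 15.6 and 17.9 CPM in cKO, without overlap between the groups (log2 fold change −0.34, SE 0.13, adjusted p = 0.207 by edgeR). Ifih1, which encodes MDA5, a sensor of long double-stranded RNA, was at 20.1, 22.9 and 20.8 CPM in WT and at 23.8, 23.4, 21.4 and 17.3 CPM in cKO. These overlapped, and the log2 fold change was 0.01 (SE 0.14). Zbp1, a sensor of Z-form nucleic acid, had a log2 fold change of −0.24 (SE 0.34).

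The 3 transcription factors were all below 0, with a median log2 fold change of −0.20. Irf9, the DNA-binding subunit of ISGF3, was at 112, 110 and 116 CPM in WT and at 84.8, 88.5, 104 and 94.7 CPM in cKO. Every cKO library was below every WT library (log2 fold change −0.28, SE 0.11, adjusted p = 0.217 by edgeR). Stat2, its partner, had a log2 fold change of −0.14 (SE 0.14), and Irf7, which drives the later wave of interferon alpha genes, one of −0.20 (SE 0.17).

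Ifi204, the PYHIN member found by symbol, belongs to a family of DNA-binding proteins that respond to interferon. It was at 2.16, 3.71 and 2.57 CPM in WT and at 4.92, 2.34, 2.08 and 2.42 CPM in cKO, where cKO replicate 1 was highest of all libraries (log2 fold change 0.06, SE 0.33). Of the synonym rows, Ifi207 had a log2 fold change of 0.09 (SE 0.35) and Ifi209 one of 0.25 (SE 0.27). Ifi211, with 59 counts in all, and Ifi213, with 17, were not tested. Of the 50-base stretches of the Ifi204 transcript, 30.2% also occur in another gene's transcripts, and its counts are uncertain to that extent.

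The ISG15 system attaches the ubiquitin-like protein ISG15 to other proteins or removes it. Usp18, which removes ISG15 and also blocks signalling at IFNAR2, had the smallest p among the members. It was at 5.92, 6.29 and 5.78 CPM in WT and at 4.40, 3.08, 3.39 and 3.65 CPM in cKO, a fold of 0.606. The groups did not overlap, and cKO replicate 1 was the nearest to WT (log2 fold change −0.72, SE 0.18, adjusted p = 0.118 by edgeR). Isg15 itself had a log2 fold change of 0.02 (SE 0.22). Herc6, the main mouse ligase for ISG15, was at 13.2, 13.7 and 10.7 CPM in WT and at 14.5, 7.14, 12.2 and 7.88 CPM in cKO. In cKO, replicate 1 was above all WT libraries, replicate 3 within their range and replicates 2 and 4 below them. The log2 fold change was −0.27 (SE 0.24), and 23.8% of the 50-base stretches of Herc6 also occur in the predicted gene Gm45193.

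IFIT proteins bind viral RNA and limit its translation. Ifit3 was at 7.64, 9.24 and 7.48 CPM in WT and at 7.27, 5.38, 4.19 and 4.54 CPM in cKO. The highest cKO library, replicate 1, was just below the lowest WT library (log2 fold change −0.60, SE 0.21, adjusted p = 0.183 by edgeR). Ifit1 had a log2 fold change of −0.46 (SE 0.36) and Ifit2 one of 0.07 (SE 0.25). Ifit3b had one of 0.03 (SE 0.44), and 51.2% of the 50-base stretches of Ifit3 also occur in it, so that reads could be split between both.

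Oligoadenylate synthetases (OAS) make the messenger that activates RNase L. The 5 tested OAS members had a median log2 fold change of 0.09, with 3 above and 2 below 0. Oasl2, a family member, was at 4.79, 8.25 and 6.47 CPM in WT and at 10.8, 4.70, 4.44 and 4.47 CPM in cKO. Replicate 1 of cKO was above all WT libraries and the other 3 were below them (log2 fold change −0.09, SE 0.32). Oas3 was at 0.402, 0.413 and 0.279 CPM in WT and at 0.346, 0.372, 0.655 and 0.490 CPM in cKO, or 10 to 18 counts a library (log2 fold change 0.36, SE 0.42). Oas1a, whose 50-base stretches occur to 57.6% in Oas1g, had a log2 fold change of −0.11 (SE 0.33), Oas2 one of 0.09 (SE 0.64) and Oasl1 one of 0.11 (SE 0.43).

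Among the 7 other antiviral effectors the median log2 fold change was −0.38. Mx1, a dynamin-like GTPase that blocks viral nucleocapsids, had the lowest log2 fold change of all members. It was at 5.52, 5.87 and 5.36 CPM in WT and at 4.81, 2.64, 3.31 and 2.45 CPM in cKO, a fold of 0.591 with no overlap (log2 fold change −0.76, SE 0.24, adjusted p = 0.160 by edgeR). Its relative Mx2, which shares 6.55% of its 50-base stretches with Mx1, had a log2 fold change of −0.54 (SE 0.21, adjusted p = 0.221).

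Bst2, or tetherin, which holds budding virus at the cell surface, was the effector with the most counts. It was at 53.9, 75.7 and 82.7 CPM in WT and at 70.7, 66.0, 70.1 and 79.2 CPM in cKO, all within the range of WT (log2 fold change 0.02, SE 0.15). Isg20, an RNA exonuclease, was at 1.53, 2.73 and 3.38 CPM in WT and at 2.70, 2.74, 3.64 and 3.25 CPM in cKO, which overlapped (log2 fold change 0.27, SE 0.27). Rsad2 (viperin) had a log2 fold change of −0.51 (SE 0.41), its genomic neighbour Cmpk2 one of −0.38 (SE 0.37), and Ifitm3, which blocks viral entry, one of 0.10 (SE 0.17).

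**Figure D3:**
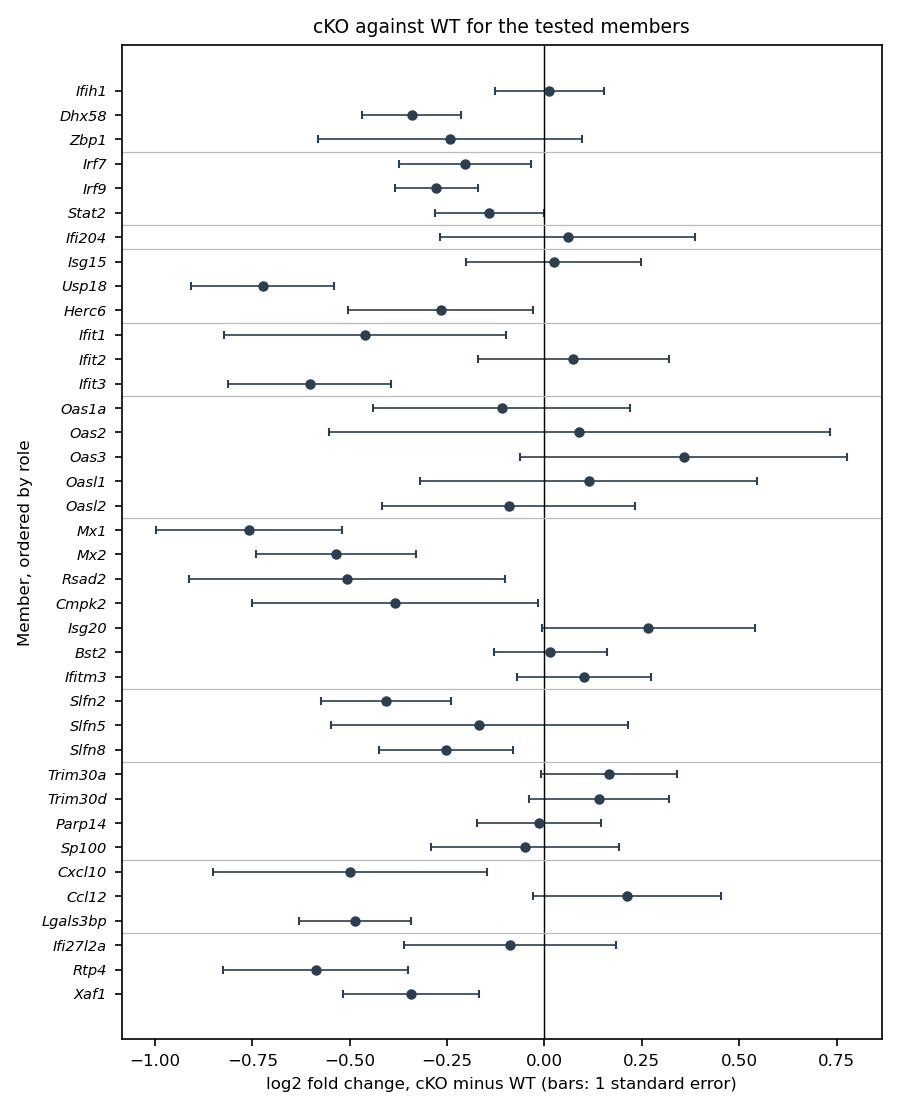
Log2 fold change of cKO against WT (horizontal axis) for the 38 tested members, ordered by role from top to bottom with lines between roles. Bars are 1 standard error. Mx1 is lowest at −0.76 and Oas3 highest at 0.36, and no member passed the threshold.

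The Schlafens, a family of growth-regulatory and RNA-binding proteins, had 3 members below 0. Slfn2 was at 33.0, 49.3 and 47.7 CPM in WT and at 34.5, 25.2, 36.4 and 34.6 CPM in cKO. WT replicate 1 was within the range of cKO and the other WT libraries were above it (log2 fold change −0.41, SE 0.17, adjusted p = 0.246 by edgeR). Slfn8 was at 52.7, 39.7 and 38.3 CPM in WT and at 42.8, 33.6, 42.3 and 27.4 CPM in cKO, with overlap (log2 fold change −0.25, SE 0.17). Slfn5 had a log2 fold change of −0.17 (SE 0.38).

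TRIM30 proteins, PARP14 and SP100 act in inflammatory signalling, ADP-ribosylation and nuclear bodies. Trim30a was at 54.6, 46.9 and 42.2 CPM in WT and at 66.0, 43.0, 63.2 and 43.0 CPM in cKO. The high cKO libraries were replicates 1 and 3, those without Xist (log2 fold change 0.17, SE 0.17). Parp14 was at 72.7, 54.7 and 51.7 CPM in WT and at 71.0, 57.1, 61.2 and 47.1 CPM in cKO, and the groups overlapped (log2 fold change −0.01, SE 0.16). Trim30d had a log2 fold change of 0.14 (SE 0.18) and Sp100 one of −0.05 (SE 0.24).

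Secreted members were Lgals3bp and 2 chemokines. Lgals3bp, a galectin-3-binding glycoprotein that microglia release, was at 197, 288 and 287 CPM in WT and at 189, 161, 181 and 204 CPM in cKO. The cKO libraries were close together, and WT replicate 1 lay among them (log2 fold change −0.49, SE 0.14, adjusted p = 0.148 by edgeR). Ccl12, a monocyte attractant, was at 15.7, 30.2 and 24.5 CPM in WT and at 22.5, 20.1, 29.3 and 37.1 CPM in cKO, with overlap (log2 fold change 0.21, SE 0.24). Cxcl10, which attracts T cells, had a log2 fold change of −0.50 (SE 0.35).

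Among the other induced genes, Rtp4, a Golgi chaperone of G protein-coupled receptors, was at 9.46, 11.4 and 11.8 CPM in WT and at 11.0, 5.18, 6.84 and 6.01 CPM in cKO. Replicate 1 of cKO was within the WT range and the other 3 were below it (log2 fold change −0.59, SE 0.24, adjusted p = 0.240 by edgeR). Of its 50-base stretches, 13.6% also occur in the predicted gene Gm45338. Xaf1, a pro-apoptotic protein, had a log2 fold change of −0.34 (SE 0.17) and Ifi27l2a one of −0.09 (SE 0.27).

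**Figure D4:**
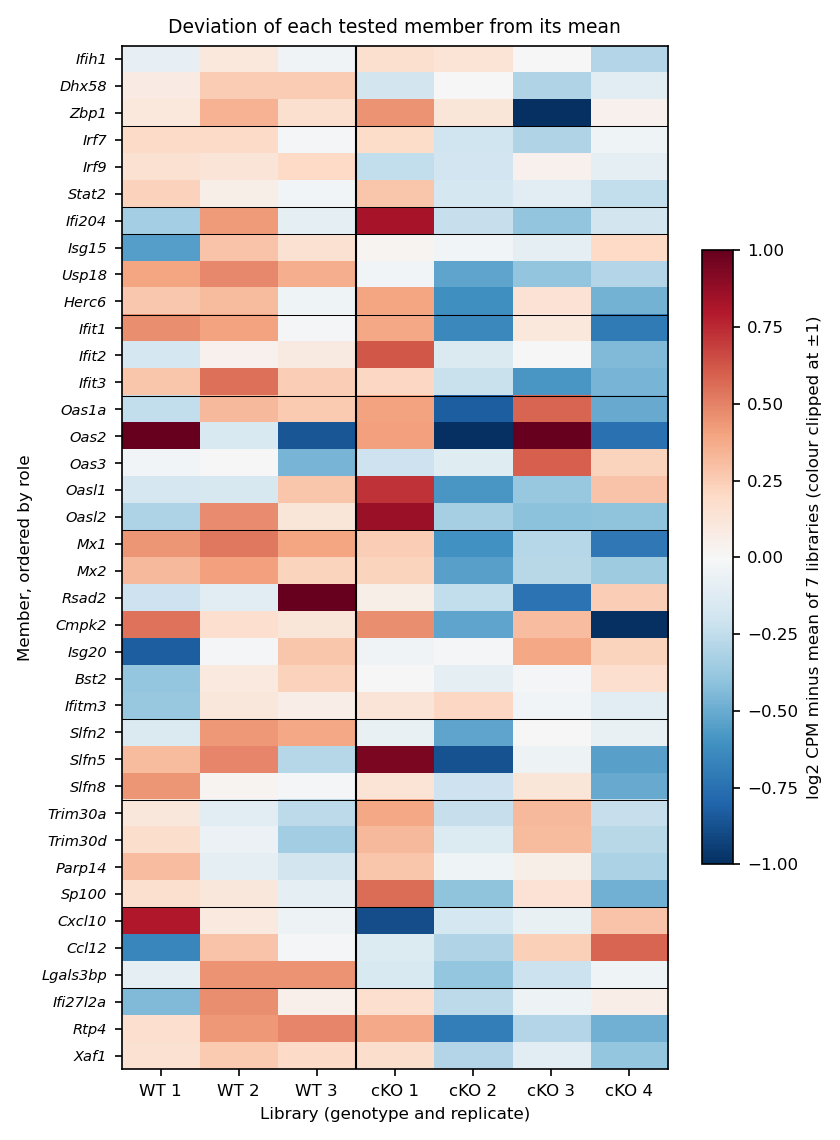
Difference of log2 CPM from the gene's mean over 7 libraries (colour, log2, clipped at ±1) for the 38 tested members (rows, by role) in each library (columns, WT to the left of the line). Column cKO 1 is mostly red, with 29 members above their mean, and column cKO 2 mostly blue, with 34 below.

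The pathway upstream of the members was read from 39 genes that are no members, of which 31 were tested and 0 passed the threshold. Their median log2 fold change was −0.06. At an unadjusted p under 0.05, 6 were lower (19.4%, against 6.87% of all genes) and 1 was higher. Of all genes, 16.5% stood at that p in either direction. Without overlap between the groups, 6 were lower and 1 was higher, where 7.2% and 8.86% of all genes were. The listed ligands were at or near 0: Ifna2, Ifna4, Ifna5, Ifne, Ifnk and also Ifng had no count in any library, Ifnb1 had 2 counts in WT replicate 3, and Ifnz had 1 count in cKO replicate 3.

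Of the receptor chains, Ifnar1 was at 141, 138 and 147 CPM in WT and at 137, 123, 132 and 125 CPM in cKO, lower without overlap but by a log2 fold change of −0.14 (SE 0.10, adjusted p = 0.528 by edgeR). Jak1, the kinase on IFNAR2, was at 288, 247 and 254 CPM in WT and at 332, 338, 336 and 304 CPM in cKO. It was the pathway gene that was higher without overlap (log2 fold change 0.31, SE 0.10, adjusted p = 0.166 by edgeR).

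Irf1, a transcription factor that both interferon types induce, was at 96.9, 116 and 129 CPM in WT and at 68.3, 78.3, 72.7 and 98.7 CPM in cKO. Only cKO replicate 4 reached the lowest WT library (log2 fold change −0.52, SE 0.15, adjusted p = 0.137 by edgeR). Sting1 (row Tmem173), the adaptor of cytosolic DNA sensing, was at 671, 632 and 631 CPM in WT and at 402, 509, 521 and 566 CPM in cKO, without overlap (log2 fold change −0.37, SE 0.12, adjusted p = 0.172). The RNA-editing enzyme Adar had a log2 fold change of −0.22 (SE 0.10, adjusted p = 0.30), the inhibitor Socs1 one of −0.50 (SE 0.21, adjusted p = 0.271) and the interferon gamma receptor Ifngr1 one of −0.14 (SE 0.11, adjusted p = 0.576).

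Within the libraries with Xist, most members had log2 fold changes below 0. This split was added after the values were seen, and it sets cKO replicates 2 and 4, whose member medians were the lowest, against WT replicates 2 and 3 and leaves out cKO replicate 1, so its calls are a description and no independent support. In a fit of both strata, the median log2 fold change there (2 cKO against 2 WT libraries) was −0.36, against −0.0046 over all genes, and 35 of 38 members were below 0. In this stratum 6 members passed the threshold by edgeR, all lower (15.8% of members, against 1.33% of all genes called lower): Mx1 (log2 fold change −1.14, SE 0.25, adjusted p = 0.028), Rtp4 (−1.05, adjusted p = 0.025), Oas1a (−0.96, adjusted p = 0.045), Slfn2 (−0.70, adjusted p = 0.025), Herc6 (−0.69, adjusted p = 0.049) and Lgals3bp (−0.65, adjusted p = 0.019). Called in either direction in this stratum were 4.41% of all genes. In 23 members both cKO libraries were below both WT libraries, and in 0 above, where 26.5% and 27.3% of all genes did so.

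Within the libraries without Xist (2 cKO against 1 WT, with its spread taken from the other groups) the median was −0.04, 19 of 38 members were below 0, and none passed the threshold (0.334% of all genes). These effects, and the difference from those with Xist, rest on the values of that 1 WT mouse. The difference of both effects, tested as such, passed the threshold in 0 of 38 members and in 0.0584% of all genes. Its median was −0.50, with 32 members below 0. The split, added after the values were seen, parts cKO replicates 2 and 4, with the lowest member medians, from cKO replicate 1, with the highest in cKO. The direction of the difference is therefore a description and no independent support. Oas1a had the smallest p, with an effect of −0.96 with Xist and 0.75 without (difference −1.72, SE 0.39, adjusted p = 0.273 by edgeR). Not all members moved this way. Dhx58 had −0.30 with Xist and −0.32 without, Irf9 had −0.30 and −0.25, and Cxcl10 had 0.05 and −1.29 (difference 1.34, SE 0.63, adjusted p = 0.579 by edgeR).

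**Figure D5:**
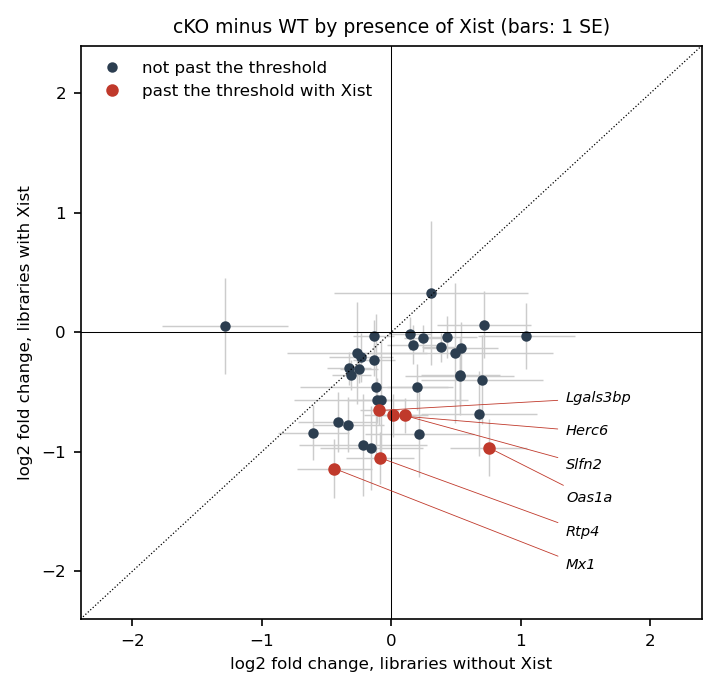
Log2 fold change of cKO against WT in the libraries without Xist (horizontal axis, 2 cKO and 1 WT) and with Xist (vertical axis, 2 cKO and 2 WT) for the 38 tested members. Bars are 1 standard error, the dotted line marks equal effects, and red points are the 6 members past the threshold with Xist, of which Mx1 is lowest at −1.14.

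Other measures also differed between libraries, not all in the same ones. Across genes, the rank correlation of a library's differences from the gene means with GC content was 0.065 to 0.42 in the libraries with Xist, and −0.502, −0.413 and 0.002 in cKO replicates 1 and 3 and WT replicate 1. It was thus negative in cKO replicates 1 and 3 and above 0 in the other 5 libraries, of both genotypes. The members' median GC content was 49.2%, against 49.8% over all genes tested. Markers of border-associated macrophages, 7 of 7 tested, summed to 72.2, 110 and 86.6 CPM in WT and to 131, 78.0, 113 and 66.4 CPM in cKO, with none at 0. Astrocyte markers, 6 of 7 tested, summed to 134 to 140 CPM in WT, 141 CPM in cKO replicate 1 and 88.2 to 99.1 CPM in the other cKO libraries, most of it Slc1a3 at 74.7 to 130 CPM, while Aqp4 was at 0.438 CPM or less. Genes that rise with cell dissociation, 10 of 11 tested, summed to 443 to 491 CPM in WT and 388 to 488 CPM in cKO, lowest in cKO replicate 1. None of them passed the threshold, but the sum held opposite directions: without overlap Jun (log2 fold change 0.32, SE 0.10) and Egr1 (0.62, SE 0.21) were higher in cKO, and Junb (−0.32, SE 0.13) and Nfkbiz (−0.51, SE 0.19) were lower. With log2 CPM of Xist as a covariate Mx1, Slfn8 and Usp18 passed the threshold (8.81% of all genes), all lower, and with library offsets fitted to GC content and length, Usp18 did (4.52% of all genes). The part of the cell markers and dissociation genes in the members' levels was not tested.

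Leaving out 1 library changed the calls in the following way. Without cKO replicate 1 the median of the members was −0.32, Mx1 and Rtp4 passed the threshold (1.19% of all genes), and 12 members were lower without overlap (11.4% of all genes). Without cKO replicate 2 the median was −0.07, and without cKO replicate 4 it was −0.10. Without WT replicate 1, 9 members were lower without overlap (14.1% of all genes), and without WT replicate 3, 8 were (10.7%).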

How the data were processed

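The authors deposited raw counts, whole numbers for each gene symbol. DRAGEN and GRCm39 are named in the submitters' processing notes. How reads were assigned, by which annotation and with which strand setting, is not given in the sources used here, so counts of overlapping, antisense or near-identical genes are uncertain. No 2 libraries of a group were alike within sampling noise (chi-square over its degrees of freedom 18.1 to 93.7), and each counted as 1 sample.

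In R 4.3.3, counts were filtered with edgeR 4.0.16 (filterByExpr, at a minimum count of 10 and a minimum total of 15), scaled with TMM factors and tested with the robust quasi-likelihood F test without covariates. Benjamini-Hochberg adjustment was over all 11991 genes and the threshold was 0.05. Standard errors were the absolute log2 fold change over the root of F. TMM-scaled CPM are printed as levels, and 2 was the prior count in log2 CPM. The edgeR fit without covariates was tested on simulated counts with a known fold in some genes and the same variation set for all genes. The fit by Xist, the offsets and the sequence searches were not tested in this way.

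The members, roles, pathway genes and markers were chosen with earlier results of these data known. The members with values per library are, in each role, that with the smallest p and that with the most counts, and the 3 highest and 3 lowest fold changes at a mean log2 CPM of at least 1. Of the pathway, the gene with the smallest p of each group is named, and the ligands were added after their values were seen. A gene of the pathway list is not reported here, though it remains in the counts. Mx2 and Xaf1, and others without library values, are given by fold change. A library counted as with Xist above 10 CPM.

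Transcript length, GC content (94.2% of genes tested) and shared 50-base stretches came from GENCODE M21, and promoters from RefSeq (GRCm38.p6). Alternatives were RLE factors, DESeq2 1.42.0, limma-voom 3.58.1, edgeR without its robust option, all genes unfiltered, genes at 1 CPM in 3 or more libraries, dropping single libraries, blocks by replicate number or by run of mouse numbers, Xist as a covariate, and GC content and length offsets (loess, span 0.3). Synonym rows and the fit by Xist were added after seeing the data.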

Additional observations from a re-analysis of the deposited data

Results flagged for a closer look

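In 2 of 20 checks of cKO values, 1 library stood apart from the other 3; chance flags about 1 in 20 such groups. Oasl2 was at 10.8 CPM in cKO replicate 1 and at 4.44 to 4.70 CPM in the other cKO libraries, a gap of 0.936 of the whole log2 CPM range, past Dixon's critical value. Slfn2 was at 25.2 CPM in cKO replicate 2 and at 34.5 to 36.4 CPM in the others, a gap of 0.855 of the range.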

How the results depend on the processing

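The count of members past the threshold, 0, was 2 with DESeq2, 3 with Xist as a covariate and 1 with GC content and length offsets. It ran from 0 to 2 when 1 library was left out. Within the libraries with Xist, a split added after the values were seen, it was 6, where 529 of all genes passed. The count of members without overlap, 5, ran from 5 to 12 when 1 library was left out. The median of −0.15 was −0.36 within the libraries with Xist. Of the pathway genes, 1 passed with DESeq2 (Irf1), 1 with the replicate block (Irf1), 2 with Xist as a covariate (Irf1 and Ikbke) and 2 with the offsets (Irf1 and Jak1). Over all genes, 43 passed in the fit without a block, 509 with DESeq2, 1056 with the Xist covariate and 542 with the offsets; 288 passed with the replicate block. Same-numbered cKO and WT libraries correlated at 0.387, 0.069 and −0.173, and those of different numbers at −0.368 to 0.375. So few values cannot decide whether the numbers pair the mice, and the labels do not say. Replicate 4 of cKO has no partner.

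Of 479 values of 26 genes under the alternatives, 425 kept direction and side of the threshold, 18 passed it newly and 36 reversed, and 16 genes did not reverse. Ifih1 was at −3.2e-05 with limma-voom, −0.0024 with the 1 CPM filter, −0.017 with blocks by run of mouse numbers, −0.0061 with Xist as a covariate and −0.0012 with the offsets. Bst2 was at −0.0042 with the 1 CPM filter, −0.016 with the replicate block and −0.056 with the offsets. Parp14 was at 0.091 with the replicate block, Ifi204 at −0.013 with blocks by run of mouse numbers, and Trim30a at −0.0020 with Xist as a covariate. Within the libraries with Xist, Ifih1 was at −0.10, Ifi204 −0.40, Isg20 −0.028, Bst2 −0.12 and Trim30a −0.052. Within those without, Herc6 was at 0.010, Oasl2 0.68 and Slfn2 0.10. Leaving out 1 library gave −0.15 to 0.14 for Bst2, −0.0050 to 0.42 for Ccl12, −0.32 to 0.30 for Ifi204, −0.056 to 0.10 for Ifih1, −0.53 to 0.11 for Oasl2 and −0.13 to 0.15 for Parp14. The cause was not tested. With 3 WT and 4 cKO mice and a median SD within groups of 0.326 on the log2 CPM scale, an adjusted p above the threshold does not show that a member did not differ.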
